A study of Glycine max with 12 samples.

Results

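Lipoxygenases are iron enzymes that add oxygen to polyunsaturated fatty acids such as linoleic and linolenic acid. Plant lipoxygenases are divided by the carbon atom they oxygenate into 9-lipoxygenases and 13-lipoxygenases. The products of 13-lipoxygenases in plastids feed the synthesis of jasmonate hormones through allene oxide synthase, and of leaf aldehydes through hydroperoxide lyase. In soybean, lipoxygenases are abundant proteins of the mature embryo, where they are known for the beany flavor of soy products, and other members of the family accumulate in leaves as vegetative storage proteins.

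The lipoxygenase models described here are the 55 of 56044 soybean gene models (Glyma models of the Wm82.a2 assembly, first splice variant) whose deposited Pfam annotation holds the lipoxygenase domain. The libraries came from hand-dissected tissues of greenhouse plants of the cultivar Williams, which has a yellow seed coat, and from 1 line with black seeds. Seed weight gave the stage, and the 9 Williams seed libraries were 4 seed coats (5-6 mg, 25-50 mg, 200-300 mg yellow and desiccating, and dry), 2 axes taken out of yellow desiccating embryos (300-400 mg and 200-300 mg) and 3 cotyledons (5-6 mg, 200-300 mg yellow and desiccating with the axis removed, and dry). The 2 vegetative Williams libraries were root, from seedlings at 5 days, and leaf, from trifoliates of adult plants that were still rolled. The remaining library was seed coat of 25-50 mg seed of W55 (Williams 55), which carries a spontaneous i mutation of the I locus, the locus that keeps pigment out of the Williams seed coat. W55 arose in Williams 79, a near-isogenic relative of Williams.

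Each condition was 1 library, so no difference between conditions had a replicate check and no p-values or SDs are given. Values are RPKM as deposited, that is, read counts scaled to the length of the model and to the mapped reads of the library. The total recovered for a library, taken here as its number of alignments, lay between 14.7 M (leaf) and 187 M (root). A ratio of 2 RPKM values is followed in parentheses by its exact 95% Clopper-Pearson interval, computed from the read alignments recovered for the model, and this interval covers counting error only. A model was counted as higher or lower when its values differed at least 4-fold on the log2(RPKM + 0.1) scale and at least 1 of them was 1 RPKM or more, and each count is read beside the same count over all models of the series.

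The marker lists followed the labels. Light-harvesting and Rubisco small subunit models held 7.82% of the summed RPKM in leaf and at most 0.418% elsewhere, and late embryogenesis abundant models held 3.36% to 7.01% in the 6 desiccating and dry seed libraries and at most 0.279% elsewhere. Storage globulin models held 0.310% to 1.11% in the desiccating and dry axes and cotyledons, 0.279% in the desiccating coat, 0.0977% in the dry coat and at most 0.0163% elsewhere. All 15 Casparian strip models reached 1 RPKM in root and none did in any other library. The 6 desiccating and dry seed libraries were sequenced with longer reads than the other 6, so stage and read length cannot be told apart. A group of 508 unannotated chromosome 13 models took up 75.7% of all RPKM in the seed coat at 5-6 mg, 47.6% in the dry coat and 54.0% in the cotyledon at 5-6 mg, against 2.73% to 20.6% in the other 9 libraries. Bringing the libraries to the same sum outside these models moved every log2 ratio by -0.70 between the 25-50 mg and 5-6 mg seed coats, by -0.23 between the 200-300 mg and 5-6 mg cotyledons, and by 0.24 and 0.29 between the 300-400 mg axis and root or leaf. Bringing all libraries to the same total RPKM moved the ratios of the first 2 of these pairs by 1.26 and 0.77, that of the dry against the desiccating coat by -0.68 and that of the dry coat against the dry cotyledon by -0.53. In the other pairs for which a ratio is given, either scaling moved it by at most 0.15 in size.

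The family was large and unevenly built. The models lay on 14 chromosomes and 1 unplaced scaffold, and 27 of the 55 stood in 7 tandem arrays of 2 to 8 models. The arrays were on chromosome 7 (5 models from Glyma.07G006700 and 2 from Glyma.07G034800), chromosome 8 (8 models from Glyma.08G189100), chromosome 11 (2), chromosome 13 (4 from Glyma.13G347500), chromosome 15 (3 from Glyma.15G026300) and chromosome 20 (3 from Glyma.20G053700). Recovered model lengths ran from 204 to 3421 nt. The 37 models of 2000 nt or more had a median of 2990 nt, and all 37 carried the PLAT domain, a membrane or protein binding domain found at the front of full lipoxygenases. Of the 18 shorter models, 15 had no PLAT domain.

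By the deposited closest match in Arabidopsis, 30 models matched LOX1 and 6 matched LOX5, both 9-lipoxygenases, while 8 matched LOX2, 6 LOX3, 3 LOX4 and 1 LOX6, which are 13-lipoxygenases. The remaining model, Glyma.14G165100 of 309 nt, had a protein kinase as its closest match and stayed below 1 RPKM.

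Most lipoxygenase models were expressed somewhere, and many of them strongly. Of the 55 models, 48 reached 1 RPKM in at least 1 library (87.3%, against 73.3% of all models), 32 reached 10 RPKM, and 17 reached 100 RPKM (30.9%, against 3.01% of all models). Of the 48, 23 were highest in root and 14 in leaf, together 77.1%, against 38.6% of all models at 1 RPKM. The 7 models that stayed below 1 RPKM in every library were Glyma.03G091000, Glyma.08G189300, Glyma.08G189700, Glyma.13G075900, Glyma.14G165100, Glyma.15G074300 and Glyma.16G082600.

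**Figure D1:**
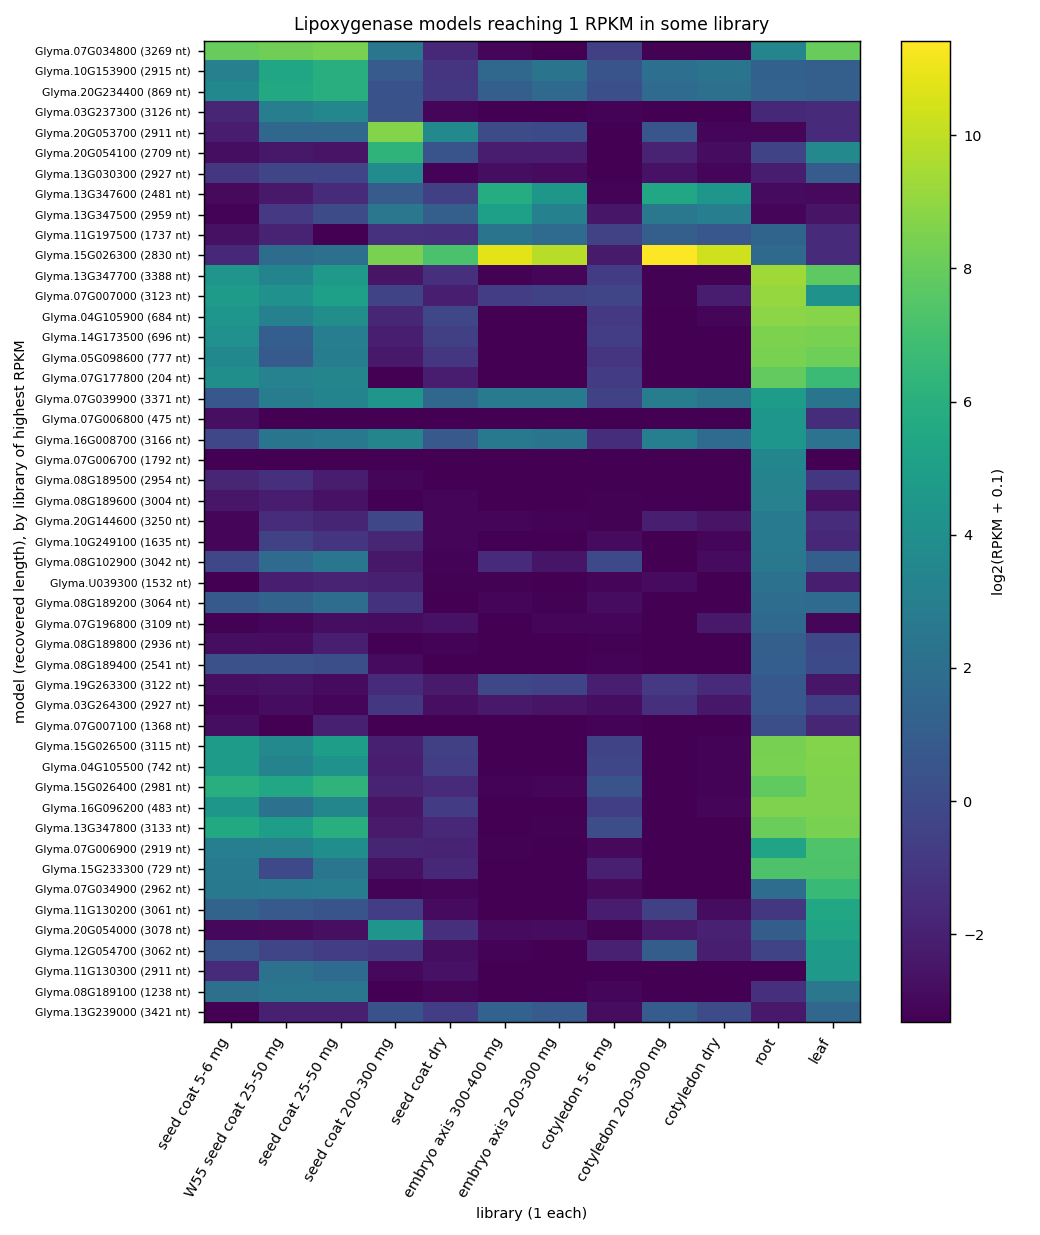
Expression of the 48 lipoxygenase models that reached 1 RPKM in some library. Columns are the 12 libraries, rows are models with their recovered length, sorted by the library of highest RPKM, and color is log2(RPKM + 0.1). The brightest row (Glyma.15G026300) stands out in the desiccating and dry seed columns, and 37 of the rows are brightest in the root or leaf columns at the right.

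The summed RPKM of the family was 603 in the W55 seed coat, and 620, 854, 922 and 174 in Williams seed coats at 5-6 mg, 25-50 mg, 200-300 mg and maturity. It was 1907 in the 300-400 mg axis and 959 in the 200-300 mg axis. Cotyledons had 14.03, 2817 and 1365 at 5-6 mg, 200-300 mg and maturity. Root had 4518 and leaf 4189, or 2175 in root and 2077 in leaf when only models of 2000 nt or more were summed. A read placed at several models can enter the sums more than once. The leading models differed between the desiccating embryo, the young seed coats and the vegetative libraries. Axes and late cotyledons shared theirs, and root and leaf shared many.

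A single model made up nearly all of the family in the desiccating embryo. Glyma.15G026300, a LOX1 match of 2830 nt at the head of the chromosome 15 array, had 1790 RPKM in the 300-400 mg axis and 900.0 RPKM in the 200-300 mg axis. Cotyledons held 0.110, 2733 and 1315 RPKM at 5-6 mg, 200-300 mg and maturity. In the desiccating cotyledon it was the 7th most abundant of all models and accounted for 97.0% of the family. The W55 seed coat had 3.58 RPKM, and Williams seed coats had 0.211, 4.27, 346 and 145 RPKM at 5-6 mg, 25-50 mg, 200-300 mg and maturity. Root had 3.37 RPKM and leaf 0.240 RPKM. Its highest seed library stood 811-fold (774 to 850) above root.

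Both front models of the chromosome 13 array shared the embryo pattern at lower levels. Glyma.13G347600, a LOX1 match of 2481 nt, had 56.3 RPKM in the 300-400 mg axis and 22.2 RPKM in the 200-300 mg axis. Cotyledons held 0.011, 45.9 and 21.0 RPKM at 5-6 mg, 200-300 mg and maturity. The W55 coat had 0.101 RPKM, and Williams seed coats held 0.031, 0.243, 1.74 and 0.581 RPKM in order of stage. Root had 0.037 RPKM and leaf 0.027 RPKM, so only embryo libraries passed 2 RPKM.

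Its neighbor Glyma.13G347500, also a LOX1 match, leaned toward the axis. It had 32.3 RPKM in the 300-400 mg axis and 8.70 RPKM in the 200-300 mg axis, and 0.085, 5.96 and 7.65 RPKM in cotyledons in order of stage. The W55 coat had 0.453 RPKM, and Williams seed coats held 0.012, 0.953, 5.57 and 2.12 RPKM. Root had 0.022 RPKM and leaf 0.069 RPKM, and the leaf value rested on 3 alignments.

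The 3 embryo models together made up 98.5% of the family's RPKM in the 300-400 mg axis, 97.1% in the 200-300 mg axis, 98.8% in the desiccating cotyledon and 98.4% in the dry cotyledon. In root they made up 0.0759% and in leaf 0.0080%. Glyma.15G026300 exceeded Glyma.13G347500 103-fold in the 200-300 mg axis, against 458-fold in the cotyledon of the same seed weight. The same ratio was 55.5 in the 300-400 mg axis and 172 in the dry cotyledon, so it differed between stages as well as between axis and cotyledon. Across the 12 libraries, the nearest pattern to Glyma.15G026300 among the lipoxygenase models was that of Glyma.13G347500 (Pearson r = 0.944 on log2(RPKM + 0.1)), followed by Glyma.13G347600 (r = 0.935). These correlations describe 12 libraries of which 6 share the desiccating or dry stage. Whether the 3 embryo models share reads was not tested.

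**Figure D2:**
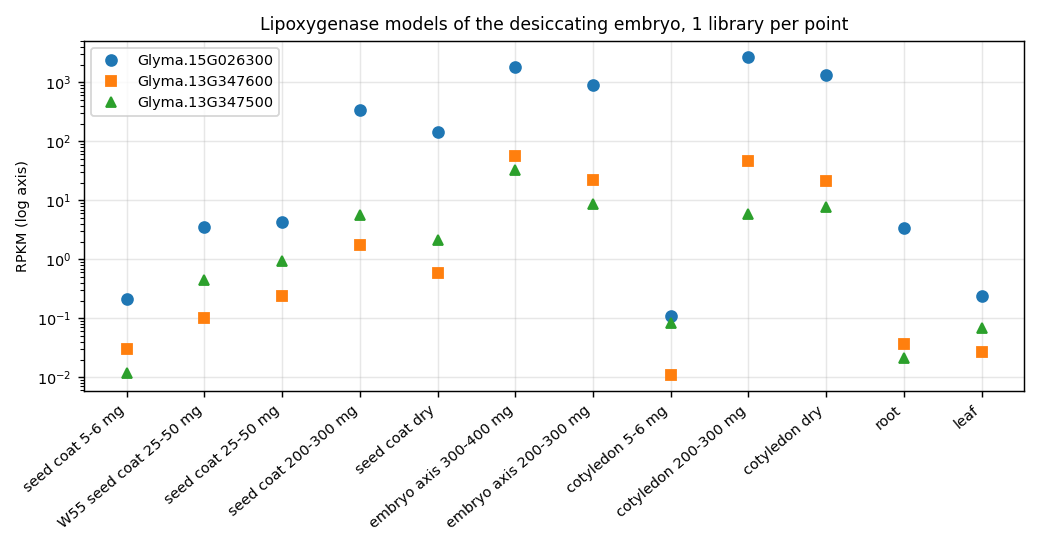
RPKM (log axis) of Glyma.15G026300, Glyma.13G347600 and Glyma.13G347500 in each of the 12 libraries, 1 point per model and library. The circles of Glyma.15G026300 lie between 900.0 and 2733 RPKM in the desiccating and dry embryo and below 5 RPKM in the young seed tissues, root and leaf.

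Seed against leaf and root was read as the highest Williams seed library over the higher of root and leaf. Of the 48 models at 1 RPKM, 9 were higher in seed and 27 lower, and 12 lay within 4-fold. Over all 40811 models read this way, 14.8% were higher and 11.6% lower, against 18.8% and 56.3% of the lipoxygenases. The median log2 difference of the lipoxygenases was -2.66, against 0.32 over all models. Among the 33 of these models that were 2000 nt or longer, 8 were higher and 15 lower, so the fragments added 12 of the 27 lower calls. The seed side had 9 libraries to draw its highest value from and the vegetative side 2.

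The 9 models higher in seed fell into an embryo group and a seed coat group. The embryo group held the 3 models above, with Glyma.13G347600 at 1540-fold (961 to 2644) and Glyma.13G347500 at 469-fold (160.3 to 2273) over the higher vegetative library. The remaining 6 were highest in a Williams seed coat: Glyma.10G153900, Glyma.20G234400 and Glyma.03G237300 at 25-50 mg, and Glyma.20G053700, Glyma.20G054100 and Glyma.13G030300 at 200-300 mg. The first 3 are LOX1 matches and the last 3 are LOX2 matches.

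**Figure D3:**
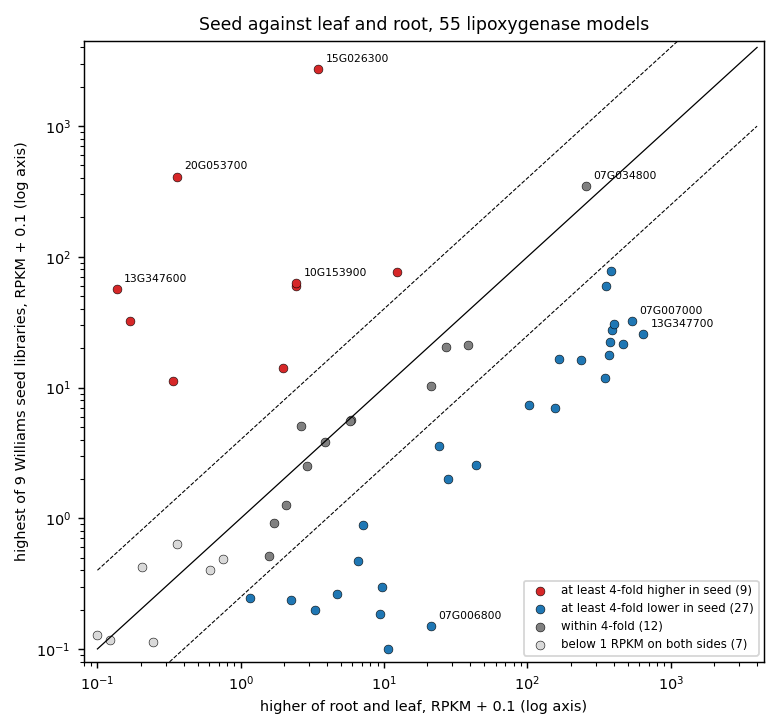
Each of the 55 lipoxygenase models by its higher value of root and leaf (horizontal) and its highest of the 9 Williams seed libraries (vertical), both as RPKM + 0.1 on log axes. The solid line marks equal values and the dashed lines 4-fold, and 9 models lie above the upper dashed line, 27 below the lower one, 12 between them and 7 below 1 RPKM on both sides.

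The 27 models lower in seed included the neighbors of the embryo models in the same arrays. All 4 are LOX1 matches of 2000 nt or more. Glyma.13G347700 had 10.03 RPKM in the W55 seed coat and 20.7, 25.4, 0.0733 and 0.307 RPKM in Williams coats from 5-6 mg to maturity, against 641 RPKM in root and 217 RPKM in leaf. Glyma.13G347800 had 29.2 RPKM in the W55 coat and 48.8, 59.2, 0.108 and 0.209 RPKM in the Williams coats, against 269 RPKM in root and 355 RPKM in leaf. The chromosome 15 neighbors were also highest in root and leaf, with leaf above root as for Glyma.13G347800 and unlike Glyma.13G347700. Glyma.15G026400 had 43.5 RPKM in the W55 coat and 62.5, 78.2, 0.161 and 0.237 RPKM in the Williams coats, against 227 RPKM in root and 386 RPKM in leaf. Glyma.15G026500 had 12.3 RPKM in the W55 coat and 28.4, 30.5, 0.148 and 0.586 RPKM in the Williams coats, against 342 RPKM in root and 405 RPKM in leaf.

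The scale mattered for these young coats. As deposited, all 4 were highest in Williams seed in the 25-50 mg coat, but with the libraries at the same sum outside the unannotated chromosome 13 models all 4 were highest in the 5-6 mg coat. On that scale Glyma.15G026400, for example, had 74.5 RPKM at 25-50 mg, against 96.5 RPKM at 5-6 mg. Its log2 difference between seed and the vegetative libraries was then -1.79, within 4-fold, against -2.30 as deposited, and 25 models in place of 27 were lower in seed.

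These 4 neighbors were nearly silent where the embryo models peaked, at 0.0171 RPKM or less each in both axes and in the desiccating and dry cotyledons, and at 0.520 to 1.25 RPKM each in the 5-6 mg cotyledon. Their summed RPKM was 0.024 in the 300-400 mg axis, 0.042 in the 200-300 mg axis, 0.0076 in the desiccating cotyledon and 0.031 in the dry cotyledon. It was 95.05 in the W55 seed coat and 160.4, 193, 0.490 and 1.34 in Williams seed coats from 5-6 mg to maturity. Root had 1479 and leaf 1362. In the desiccating cotyledon Glyma.15G026300 had 299865 alignments, while both of its neighbors had 0 in that library. Alignments to the embryo model therefore did not spread to its neighbors there.

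**Figure D4:**
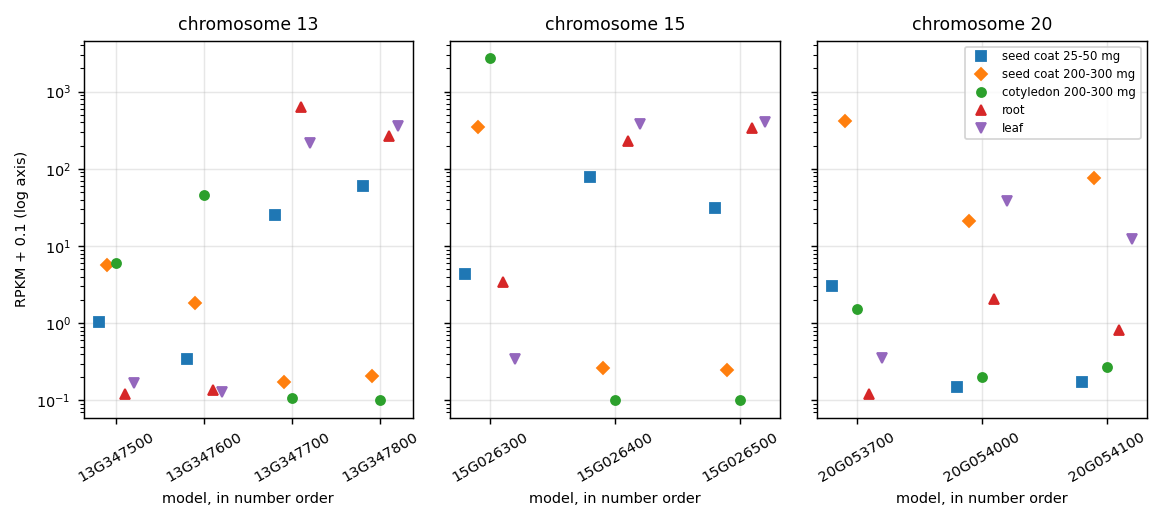
RPKM + 0.1 (log axis) of the models in the tandem arrays of chromosomes 13, 15 and 20, in number order, in 5 Williams libraries. On chromosomes 13 and 15 the desiccating cotyledon (circles) is high for Glyma.13G347500, Glyma.13G347600 and Glyma.15G026300, and root and leaf (triangles) are high for their neighbors. On chromosome 20 the desiccating seed coat (diamonds) is highest for Glyma.20G053700 and Glyma.20G054100, and leaf for Glyma.20G054000.

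A set of 7 short models resembled these neighbors across tissues, but not between the young coats. As deposited, all 7 were lower in the Williams coat at 25-50 mg than at 5-6 mg, while these neighbors were higher. Glyma.04G105500, Glyma.04G105900, Glyma.05G098600, Glyma.07G177800, Glyma.14G173500, Glyma.15G233300 and Glyma.16G096200 are 204 to 777 nt long, and each reached between 155 and 466 RPKM in root or leaf. Glyma.07G177800 is a LOX3 match and the others are LOX1 matches. Glyma.04G105900 is an example: it had 8.69 RPKM in the W55 coat and 21.2, 15.5, 0.194 and 0.766 RPKM in Williams seed coats from 5-6 mg to maturity, against 466 RPKM in root and 429 RPKM in leaf. Both axes had 0 RPKM, and cotyledons held 0.439, 0 and 0.013 RPKM at 5-6 mg, 200-300 mg and maturity.

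Glyma.04G105500, of 742 nt, had 9.43 RPKM in the W55 coat and 27.6, 18.7, 0.120 and 0.542 RPKM in Williams seed coats from 5-6 mg to maturity, against 345 RPKM in root and 390.1 RPKM in leaf. Both axes had 0 RPKM, and cotyledons held 0.794, 0 and 0.012 RPKM at 5-6 mg, 200-300 mg and maturity.

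Together the 7 held 50.8% of the family's RPKM in root and 50.2% in leaf, and 0% in the 200-300 mg cotyledon. The pattern of Glyma.04G105500 matched that of the long model Glyma.15G026500 with r = 0.999 over the 12 libraries. Since a read could be placed at up to 25 positions, a fragment and a full model with the same stretch of sequence can count the same read, and such values do not show separate transcription of the fragment.

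Root and leaf shared many copies and differed in others. The 4 neighbors of the embryo models made up 32.7% of the family's RPKM in root and 32.5% in leaf. Of the 44 models at 1 RPKM in either, 14 were higher in root and 11 lower, while 16.3% and 12.2% of all models were higher and lower in root. The other 19 lay within 4-fold. Without models under 2000 nt, 9 were higher in root and 10 lower. The largest of the root models was Glyma.07G007000, a LOX1 match, with 538 RPKM in root against 18.6 RPKM in leaf, a ratio of 29.0 (27.1 to 31.0). It had 17.6 RPKM in the W55 coat, 28.6, 32.3, 0.724 and 0.131 RPKM in Williams coats from 5-6 mg to maturity, 0.546 and 0.608 RPKM in the 300-400 mg and 200-300 mg axes, and 0.743, 0.0083 and 0.129 RPKM in cotyledons from 5-6 mg to maturity. The model before it in the array, Glyma.07G006900, went the other way, with 39.5 RPKM in root against 166 RPKM in leaf, a ratio of 0.237 (0.231 to 0.244).

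The first 2 models of that array were nearly root-only at lower levels. Glyma.07G006700 had 10.6 RPKM in root and no alignment in any of the other 11 libraries, at least 93.0-fold higher than leaf at a floor of 3 alignments in leaf. Glyma.07G006800, a LOX5 match of 475 nt, had 21.3 RPKM in root against 0.286 RPKM in leaf, and at most 0.049 RPKM in any seed library. In the chromosome 8 array, Glyma.08G189500 and Glyma.08G189600 had 9.49 and 9.33 RPKM in root, against 0.414 and 0.068 RPKM in leaf.

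Leaf led for Glyma.07G034900 and for a group of LOX2 matches. Glyma.07G034900, a LOX1 match on chromosome 7, had 3.73 RPKM in root against 102 RPKM in leaf, and at most 7.22 RPKM in Williams seed. Glyma.11G130200 had 0.423 RPKM in root against 43.6 RPKM in leaf, a 103-fold (90.0 to 118) difference. Glyma.12G054700 had 0.711 RPKM in root against 27.8 RPKM in leaf. Glyma.11G130300 had no alignment in root against 24.1 RPKM in leaf, at least 4375-fold lower in root at a floor of 3 alignments there. All 3 are LOX2 matches, and LOX2 in Arabidopsis is the plastid enzyme behind most wound jasmonate in leaves.

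A pair of LOX3 matches was expressed in most tissues, reaching 1 RPKM in 11 (Glyma.07G039900) and 10 (Glyma.16G008700) of the 12 libraries. The LOX1 matches Glyma.10G153900 and Glyma.20G234400, described below with the seed coat, did so in 11 libraries each. Glyma.07G039900 had 7.21 RPKM in the W55 coat, 1.51, 9.78, 20.4 and 2.97 RPKM in Williams seed coats from 5-6 mg to maturity, and 7.01 and 6.34 RPKM in the 300-400 mg and 200-300 mg axes. Cotyledons had 0.653, 7.38 and 4.92 RPKM from 5-6 mg to maturity, root 26.9 RPKM and leaf 5.12 RPKM. Glyma.16G008700 had 5.27 RPKM in the W55 coat, 0.792, 6.10, 10.2 and 1.61 RPKM in the Williams coats, and 6.09 and 5.13 RPKM in the axes. Cotyledons had 0.278, 8.0 and 3.40 RPKM, root 21.0 RPKM and leaf 4.87 RPKM. The 2 patterns matched with r = 0.977 over 12 libraries, and both were highest in root.

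The cotyledon comparison asked how the family differed between 200-300 mg desiccating seed and 5-6 mg seed. Of the 13 models at 1 RPKM in either, 8 were higher in the desiccating cotyledon and 2 lower, while 20.2% and 24.9% of all models were higher and lower. The median log2 difference was 3.31, against 0.03 over all models. Glyma.15G026300 stood highest, with a log2 difference of 13.67, and Glyma.13G347600 followed at 8.70 and Glyma.13G347500 at 5.04. Both LOX3 matches above were higher too, Glyma.16G008700 28.8-fold (24.4 to 34.3) and Glyma.07G039900 11.3-fold (10.1 to 12.7). The remaining 3 higher models, Glyma.12G054700, Glyma.13G239000 and Glyma.20G053700, had 1.44 to 1.90 RPKM in the desiccating cotyledon. The 2 lower models were Glyma.13G347800 and Glyma.15G026400, both without an alignment in the desiccating cotyledon, against 1.03 and 1.25 RPKM at 5-6 mg. With every library brought to the same RPKM sum, neither was counted as lower, because both were then under 1 RPKM.

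From the desiccating to the dry cotyledon the embryo models kept their order. Of 11 models at 1 RPKM in either, none was higher in the dry cotyledon and 2 were lower, while 0.981% and 1.73% of all models were higher and lower. The 2 were Glyma.12G054700, with 0.138 RPKM in the dry against 1.90 RPKM in the desiccating cotyledon, and Glyma.20G053700, with 0.018 against 1.44 RPKM. Glyma.15G026300 in the dry cotyledon was at 0.481 (0.479 to 0.483) of its desiccating value, Glyma.13G347600 at 0.458 (0.440 to 0.476) and Glyma.13G347500 at 1.28 (1.18 to 1.40), all within 4-fold.

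Between axis and cotyledon at the same seed weight of 200-300 mg, few models passed 4-fold, in the family as over all models. Of 11 models at 1 RPKM in either, none was higher in the axis and 1 was lower, while 3.04% and 2.71% of all models were higher and lower. The lower model was the LOX2 match Glyma.12G054700, with 0.0033 RPKM in the axis against 1.90 RPKM in the cotyledon. Glyma.15G026300 in the axis was at 0.329 (0.328 to 0.331) of the cotyledon, Glyma.13G347600 at 0.483 (0.464 to 0.503) and Glyma.13G347500 at 1.46 (1.34 to 1.59). Between the axes, all 3 stood higher at 300-400 mg than at 200-300 mg by less than 4-fold. The ratio was 1.989 (1.979 to 1.999) for Glyma.15G026300, 2.54 (2.46 to 2.62) for Glyma.13G347600 and 3.71 (3.55 to 3.88) for Glyma.13G347500.

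The leading lipoxygenases of the seed coat, a maternal tissue, changed with stage, and some were shared with leaf or with the embryo. In young coats the leading model was Glyma.07G034800, a LOX1 match of 3269 nt. It had 298 RPKM in the W55 coat, and in Williams 258 RPKM at 5-6 mg, 346 RPKM at 25-50 mg, 5.43 RPKM at 200-300 mg and 0.206 RPKM at maturity. All axis and cotyledon libraries had at most 0.594 RPKM. Root had 10.3 RPKM and leaf 255 RPKM, so the young coats and leaf shared this model and root had 0.0403 (0.0391 to 0.0415) of the leaf value. The order of the 5-6 mg and 25-50 mg coats depended on scale. The later coat was 1.34-fold (1.32 to 1.36) higher as deposited, but with the libraries at the same sum outside the unannotated chromosome 13 models it had 330 RPKM, against 398 RPKM at 5-6 mg.

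Glyma.10G153900 and Glyma.20G234400, LOX1 matches of 2915 and 869 nt, were highest in the Williams 25-50 mg coat. Glyma.10G153900 had 41.5 RPKM in the W55 coat, 8.48, 63.1, 1.79 and 0.363 RPKM in Williams coats from 5-6 mg to maturity, 1.32 to 4.94 RPKM in axes and cotyledons, 2.33 RPKM in root and 2.07 RPKM in leaf. Glyma.20G234400 had 49.8 RPKM in the W55 coat, 11.5, 59.9, 1.22 and 0.432 RPKM in the Williams coats, 1.10 to 4.205 RPKM in axes and cotyledons, 2.34 RPKM in root and 2.11 RPKM in leaf. The ratio of the longer to the shorter model stayed between 0.737 and 1.55 in all 12 libraries, and whether the pair shares reads was not tested. Glyma.03G237300 was a smaller model of the same stage, with 7.65 RPKM in the W55 coat, 11.1 RPKM in the 25-50 mg Williams coat, 1.14 RPKM at 200-300 mg and at most 0.239 RPKM in every other library.

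In the desiccating coat a different set had taken over. Of 34 models at 1 RPKM in either Williams coat, 8 were higher at 200-300 mg than at 25-50 mg and 23 were lower, while 9.02% and 19.9% of all models were higher and lower. The median log2 difference was -5.04, against -0.26 over all models. Among the 25 of 2000 nt or more, 8 were higher and 14 lower. The 23 lower models included Glyma.07G034800, whose desiccating coat had 0.0157 (0.0150 to 0.0164) of the 25-50 mg value, and the 4 neighbors of the embryo models, with ratios of 0.0018 to 0.0048.

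The chromosome 20 array of LOX2 matches led the 8 higher models. Glyma.20G053700 had 2.94 RPKM in the W55 coat and 0.130, 2.92, 410.0 and 12.8 RPKM in Williams coats from 5-6 mg to maturity. It had 0.968 and 0.883 RPKM in the 300-400 mg and 200-300 mg axes, and 0, 1.44 and 0.018 RPKM in cotyledons at 5-6 mg, 200-300 mg and maturity. Root had 0.022 RPKM and leaf 0.257 RPKM. In the desiccating coat it was the 68th most abundant of all models, 140-fold (121 to 164) above the 25-50 mg coat and 1598-fold (893 to 3200) above leaf. The dry coat then had 0.0313 (0.0303 to 0.0322) of the desiccating coat.

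Both neighbors were also high in the desiccating coat among seed libraries, but Glyma.20G054000 was highest in leaf. Glyma.20G054100 had 0.093 RPKM in the W55 coat, 0.045, 0.074, 76.2 and 1.34 RPKM in Williams coats from 5-6 mg to maturity, at most 0.171 RPKM in the embryo libraries, 0.723 RPKM in root and 12.2 RPKM in leaf. Glyma.20G054000 had 0.027 RPKM in the W55 coat, 0.023, 0.049, 21.0 and 0.309 RPKM in the Williams coats, at most 0.154 RPKM in the embryo libraries, 1.95 RPKM in root and 38.2 RPKM in leaf. A further LOX2 match outside the array, Glyma.13G030300, had 13.96 RPKM in the desiccating coat, at most 0.744 RPKM in the other seed libraries, 0.120 RPKM in root and 1.86 RPKM in leaf. All 4 were higher in the desiccating coat than at 25-50 mg.

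The remaining 4 higher models were the 3 embryo models and the LOX3 match Glyma.13G239000. Glyma.15G026300 stood 81.2-fold (71.5 to 92.5) above the 25-50 mg coat. The share of storage globulin models, read here as markers of maturing seed, was also higher. It was 0.279% of the summed RPKM in the desiccating coat, against 0.0163% in the 25-50 mg coat. It was 1.11% in the desiccating cotyledon and 0.310% in the 200-300 mg axis. Of the 21 globulin models, 12 reached 1 RPKM in the desiccating coat, 16 in the 25-50 mg coat and 16 in the desiccating cotyledon, and 2 had no alignment in the desiccating coat. The part of embryo RNA in the coat values of the embryo models was not tested.

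Seed coat was also compared with cotyledon of the same 200-300 mg seed. The coat and embryo models were named from these same libraries, so their sides here were in part set by that choice. Of 16 models at 1 RPKM in either, 6 were higher in the coat and 3 lower, while 19.6% and 3.52% of all models were higher and lower. The 6 were the 4 LOX2 matches above, Glyma.07G034800 and Glyma.03G237300, with Glyma.20G053700 at 284-fold (244 to 333). The 3 lower models were Glyma.15G026300, Glyma.13G347600 and Glyma.11G197500. The coat had 0.127 (0.126 to 0.128) of the cotyledon value of Glyma.15G026300 and 0.0380 (0.0345 to 0.0417) of that of Glyma.13G347600. For Glyma.13G347500 the ratio was 0.935 (0.856 to 1.02), an interval that holds 1.

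In the dry coat Glyma.15G026300 made up 83.3% of the family's RPKM and stood at 0.110 (0.109 to 0.111) of the dry cotyledon, with 145 RPKM in the coat against 1315 RPKM in the cotyledon. With every library at the same RPKM sum the values were 107.2 RPKM in the coat and 1405 RPKM in the cotyledon. Its value relative to the desiccating coat was 0.419 (0.414 to 0.423), against 0.0313 for Glyma.20G053700 and 0.0176 (0.0159 to 0.0193) for Glyma.20G054100 in the same pair of libraries. Globulin models held 0.0977% of the summed RPKM in the dry coat, against 0.751% in the dry cotyledon.

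The W55 and Williams coats of 25-50 mg seed differ at the I locus, which lies on chromosome 8 and holds chalcone synthase genes. Of 28 lipoxygenase models at 1 RPKM in either, none was at least 4-fold higher in W55 and 2 were lower, while 0.227% and 0.461% of all models were higher and lower. The 2 were short models, Glyma.05G098600 with 1.67 RPKM in W55 against 7.38 RPKM in Williams and Glyma.15G233300 with 0.862 against 5.52 RPKM. At 2-fold, none was higher and 7 were lower (25.0%), while 2.83% and 3.34% of all models were higher and lower. Of the 7, 3 were 2000 nt or longer.

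Smaller differences ran mostly one way. In W55, 24 of the 28 models were lower than in Williams, with a median ratio of 0.663, against 1.02 over 31234 models with an alignment in both, of which 47.1% were lower in W55. The interval lay below 1 for 20 models and above 1 for 1, Glyma.11G130300, with 4.56 RPKM in W55 against 3.49 RPKM in Williams. With the other scalings 25 and 26 of the 28 were lower. The 4 vegetative neighbors of the embryo models were among the lowest, with ratios of 0.395 (0.363 to 0.430) for Glyma.13G347700, 0.403 (0.372 to 0.437) for Glyma.15G026500, 0.493 (0.467 to 0.520) for Glyma.13G347800 and 0.557 (0.532 to 0.583) for Glyma.15G026400.

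The leading coat model, Glyma.07G034800, was at 0.860 (0.845 to 0.876) in W55, and Glyma.10G153900 at 0.658 (0.626 to 0.691). Models that share reads are not separate counts of this difference, and the 19 models of 2000 nt or more had a median ratio of 0.691, with 15 of them lower in W55. With 1 plant line and 1 library each, seed lot, dissection and line background cannot be told apart from the i mutation.

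**Figure D5:**
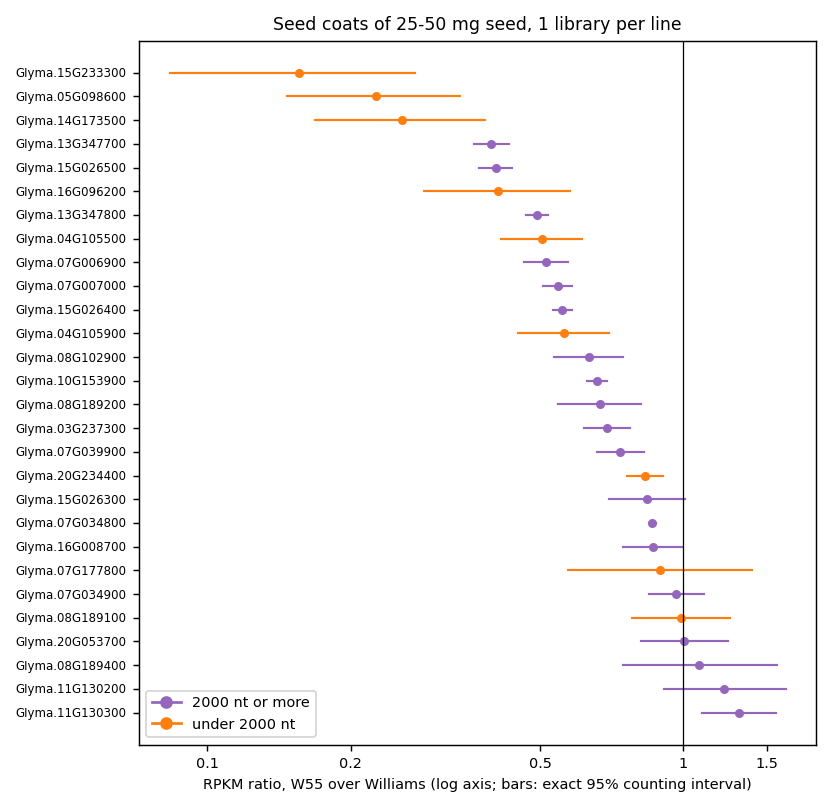
RPKM ratio of W55 over Williams (log axis) for the 28 lipoxygenase models at 1 RPKM in either 25-50 mg seed coat, 1 line per model with its exact 95% counting interval, colored by model length. Most points lie left of 1, the lowest at 0.156 (Glyma.15G233300), and Glyma.11G130300 at 1.31 is the rightmost.

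Genes around the lipoxygenases were read from fixed lists in the same seed against leaf and root comparison, in which 14.8% of all models were higher and 11.6% lower in seed. Among the lipoxygenases themselves, 6 of the 32 tested LOX1 and LOX5 matches were higher and 22 lower, and 3 of the 16 tested LOX2, LOX3, LOX4 and LOX6 matches were higher and 5 lower. These 5 included the short model Glyma.07G177800. Upstream, fatty acid desaturases, which make the polyunsaturated substrates, had 3 of 16 higher and 2 lower, and their top model Glyma.15G195200 (FAD2 match) had 87.5 RPKM in the 300-400 mg axis against 176 RPKM in leaf. Plastid lipases of the DAD1 kind, which release fatty acids from membranes, had 1 of 5 higher and 1 lower, and the higher one, Glyma.03G159000, reached 124 RPKM in the dry seed coat.

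Downstream, allene oxide synthase commits 13-lipoxygenase products to jasmonate. Its matches had 1 of 5 higher and 2 lower. The higher one, Glyma.11G122700, had 47.7 RPKM in the W55 coat, 11.7, 48.1, 103 and 0.113 RPKM in Williams coats from 5-6 mg to maturity, 1.81 to 4.99 RPKM in axes and cotyledons, 10.4 RPKM in root and 16.1 RPKM in leaf. Its highest library was the desiccating coat, as for Glyma.20G053700, but the latter had only 2.92 RPKM in the Williams 25-50 mg coat. The single hydroperoxide lyase match, Glyma.12G191400, was lower in seed, with at most 2.98 RPKM in any seed library against 45.4 RPKM in leaf.

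Allene oxide cyclase matches had 0 of 6 higher and 2 lower, and the top model Glyma.13G047300 had 143 RPKM in the W55 coat, 97.1 RPKM in the Williams 25-50 mg coat and 119 RPKM in root. In the desiccating coat it had 16.3 RPKM, so it did not share the peak of Glyma.11G122700. The summed RPKM of the cyclase matches was 27.0 there, against 189 in the Williams 25-50 mg coat. The 12-oxophytodienoate reductase list pooled matches of OPR1, OPR2 and OPR3 and had 0 of 13 higher and 7 lower. Its top model Glyma.01G235600, an OPR2 match, had 48.6 RPKM in the dry cotyledon. The highest OPR3 match, Glyma.17G049900, was lower in seed, with 23.2 RPKM in root. Glyma.13G109700, an OPR3 match with 22.9 RPKM in root, lay within 4-fold. It had 7.43 RPKM in the W55 coat, and 5.76 and 5.78 RPKM in the Williams 25-50 mg and 200-300 mg coats. The ligase and acyl-CoA oxidases that shorten the side chain had 2 of 13 higher and 0 lower, and their top model Glyma.03G056400, within 4-fold, had 55.6 RPKM in the dry cotyledon.

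Matches of JAR1, which conjugates jasmonate to isoleucine, and of its receptor COI1 had 3 of 10 higher and 0 lower. The top model Glyma.16G026900, a JAR1 match, had 97.8 RPKM in the dry and 97.3 RPKM in the desiccating cotyledon, against 3.48 RPKM in root and 1.38 RPKM in leaf. JAZ repressors of jasmonate responses had 1 of 21 higher and 9 lower, and their top model Glyma.15G179600 had at most 12.6 RPKM in Williams seed against 90.3 RPKM in root. The higher one, Glyma.08G096500, a JAZ8 match, had 80.0 RPKM in the desiccating cotyledon against 4.42 RPKM in root and 0.393 RPKM in leaf.

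Alpha-dioxygenases, which oxygenate fatty acids by another route, had 0 of 2 tested models higher and 0 lower, with the top model Glyma.13G070900 at 12.5 RPKM in the desiccating coat and 13.7 RPKM in leaf. Models with a PLAT domain and no lipoxygenase domain had 2 of 3 higher and 0 lower, led by Glyma.08G137000 at 161 RPKM in the 5-6 mg coat.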

How the data were processed

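RNA-Seq reads of the 12 libraries were aligned by the authors with Bowtie 1 to the transcripts of all Glyma models (Wm82.a2), with at most 3 mismatches and as many as 25 placements of a read. The deposited values are RPKM, the hits normalized by the authors to model length and to the mapped reads of the library, and the first splice variants were used here. No column of these values was left without a sample. The library preparation is not stated to keep strand, so a model and an overlapping antisense gene could not be told apart.

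Library totals were recovered from the deposited RPKM and the cDNA lengths listed for 48 models in the study's supplement. Each total was the one at which the hits of these models came out whole within 0.001, rounded to a whole number. Each of the 55 members then had a length at which its RPKM gave whole hits within 0.01. For 47 of the 48 models the length so recovered equaled the listed one. The totals came from these same listed lengths, so this is not an independent check. Totals ran from 14.7 to 187 M. The authors describe the denominator as mapped reads, and taking these totals as alignments is an inference. At 3000 nt, 3 hits correspond to 0.0053 RPKM in root and 0.068 RPKM in leaf. PCR reads are not independent molecules and reads can be counted at several models, so intervals cover counting error only.

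Differences were taken on log2(RPKM + 0.1), which understates changes of low models, and called at 4-fold with at least 1 RPKM on either side. Ratios have exact Clopper-Pearson intervals (scipy 1.17.1, Python 3.11.15, pandas 2.3.3, numpy 2.4.6). The calling and recovery steps were tested on simulated data. Tandem arrays were runs of members no more than 3 model numbers apart. Models named with values were those among the top 3 lipoxygenases of some library, or at 10 RPKM and past 4-fold between seed and leaf or root. Some low values of these, and most values of the short models, are given as a range only, and other models named were chosen after their values were seen. The highest model of each pathway list is named. The 2-fold count and the values between further pairs of libraries were chosen after seeing the data. The members and the lists were chosen with earlier results of these data known. Alternatives were a pseudocount of 0.01 or 1 RPKM, no minimum, a common RPKM sum with or without 508 chromosome 13 models that have neither a Pfam domain nor an Arabidopsis match, and, added after seeing the data, models of 2000 nt or more alone. Promoter and protein sequences were not analysed here.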

Additional observations from a re-analysis of the deposited data

How the results depend on the processing

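Across 8 comparisons, 82 of 96 recounts of lipoxygenase models stayed within 1.5 times the count given above, 14 did not, and none changed direction. With a pseudocount of 1 RPKM, the models higher in the 200-300 mg than in the 5-6 mg cotyledon were 5 and those lower 0. At that pseudocount those lower in the dry than in the desiccating cotyledon were 0, those lower in the axis than in the cotyledon 0, those higher in the 200-300 mg than in the 25-50 mg coat 5, and those lower in W55 0. With no minimum RPKM, 13 were lower in the 200-300 mg than in the 5-6 mg cotyledon, and in the axis against the cotyledon 1 was higher and 2 were lower. With the same RPKM sum in every library, 0 were lower in the 200-300 mg cotyledon than at 5-6 mg. With only models of 2000 nt or more, a choice made after seeing the data, 15 were lower in seed than in leaf and root, 9 higher in root than in leaf, 14 lower in the 200-300 mg than in the 25-50 mg coat, and 0 lower in W55. Of 140 recomputed differences of single models in seed against leaf and root, 139 kept their side of 4-fold, and Glyma.15G026400 came to -1.79 on the log2 scale, within 4-fold, with the libraries at the same sum outside the unannotated chromosome 13 models. No paired analysis was possible because each condition was 1 library and the shared replicate number 1 pairs nothing. Depth limited low models most in leaf and in both 25-50 mg seed coats, where 3 alignments to a model of 3000 nt correspond to 0.042 to 0.068 RPKM.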

Other observations

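Models of the chromosome 8 array differed in level among themselves. In this array of 8 LOX1 matches, only Glyma.08G189100 and Glyma.08G189200 passed 3 RPKM outside root. Glyma.08G189100, of 1238 nt, had 4.31 RPKM in the 5-6 mg coat, 5.38 RPKM in the W55 coat, 5.45 RPKM in the Williams 25-50 mg coat, 0.310 RPKM in root and 5.65 RPKM in leaf, and no alignment in the desiccating coat. Glyma.08G189200 had 2.49 RPKM in the W55 coat, 3.73 RPKM in the Williams 25-50 mg coat, 3.77 RPKM in root and 3.50 RPKM in leaf. In the same array Glyma.08G189300 and Glyma.08G189700 had at most 0.144 and 0.027 RPKM in any library.

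The models matched to LOX5 were low throughout. Besides Glyma.07G006800, the highest was Glyma.20G144600 with 6.99 RPKM in root, followed by Glyma.10G249100 with 6.48 RPKM and Glyma.U039300 on an unplaced scaffold with 4.59 RPKM, all in root, and Glyma.03G091000 and Glyma.16G082600 stayed at 0.656 and 0.507 RPKM or less.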
